A study of Mus musculus with 16 samples.

Results

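Transcripts of 10 cytokine genes were followed in paired macrophage subsets from mice with ovarian cancer: Tnf, Il6, Il10, Il12a, Il12b, Il23a, Il27, Ebi3, Osm and Lif. They were chosen by name, as inflammatory and regulatory cytokines, with earlier results of these data known. The counts list 55604 genes, these 10 among them. Of these 10, 9 had enough reads to be tested and 1, Il12a, did not. In Tim-4+ tumor-associated macrophages (TAMs), transcripts of Il6, Il10, Il27, Ebi3, Osm and Lif were higher than in Tim-4- TAMs from the same pair, Tnf, Il12b and Il23a did not pass the test, and Il12a was close to undetectable in both subsets.

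The cells came from the peritoneal cavity of C57BL/6 mice, female and 6 to 8 weeks old when used according to the methods, which bore peritoneal ID8 tumors. ID8 is a mouse ovarian epithelial cancer cell line, and the methods name its luciferase-expressing form, injected into the peritoneal cavity of wild-type mice. TAMs were taken at 6 to 7 weeks after inoculation, and both subsets came from tumor-bearing mice, so there is no tumor-free sample here. Tim-4 (encoded by Timd4) is a phosphatidylserine receptor of resident peritoneal macrophages. According to the methods, tumor cells and dead cells were first reduced on a density gradient, Tim-4+ TAMs were captured with an antibody to Tim-4 and magnetic beads, and Tim-4- TAMs were then captured from the remaining cells with beads against F4/80. Subset and capture step therefore cannot be told apart. There were 4 Tim-4+ and 4 Tim-4- libraries, in pairs numbered 793, 784, 783 and 779, and per-library values below follow that order.

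Cytokines of this group fall into families by receptor. Tumor necrosis factor (Tnf) acts through its own pair of receptors. Il6, Osm (oncostatin M), Lif (leukemia inhibitory factor) and Il27 all signal through receptor complexes that contain gp130, encoded by Il6st, and activate STAT3 in particular. Il10 is the main cytokine by which macrophages restrain inflammatory gene expression, and also acts through STAT3. The IL-12 family is built from shared chains: Il12a pairs with Il12b as IL-12, Il23a pairs with Il12b as IL-23, and Il27 (the p28 chain) pairs with Ebi3 as IL-27. Many cytokine transcripts are short lived because proteins such as the Zfp36 family bind AU-rich elements in their 3′ untranslated regions (UTRs), and transcription of Il6, Tnf, Il12b and Ebi3 is commonly driven by NF-kappaB.

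The AU-rich sites are shown because they differ between members. The nonamer TTATTTATT, a binding site of the Zfp36 family, was present on the transcript strand of the 3′ UTR of 5 of the 10 cytokine genes (GENCODE M21 on GRCm38), against 7.18% of 21004 genes with an annotated 3′ UTR. The stretches below hold 30 bases each, with the nonamers in capitals.
Tnf: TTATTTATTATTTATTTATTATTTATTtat
Il27: ttcttggatatTTATTTATTtttaagaaat
Lif: caaaggggcctTTATTTATTatttaaaact
Il12a: cctatttatatTTATTTATTttctatttat
Il23a: atagatgatggTTATTTATTctatttataa

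Tnf held 5 copies, overlapping in part, within a UTR of 764 bases, Il27 held 2 in 285 bases and Lif held 2 in 3180 bases. Il12a and Il23a held 1 each. Il6, Il10, Il12b, Ebi3 and Osm had none, although Il6, Il10, Il12b and Osm each carried 6 copies of the shorter pentamer ATTTA, which 62.8% of genes hold at least once, and Ebi3 carried 1. The nonamer thus occurred in genes whose transcripts rose (Il27, Lif), in Tnf, which did not pass the test, and in the scarce Il12a and Il23a. A match is a description of the letters and not of binding.

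For 2 of the cytokines that rose, the 150 bases before the RefSeq start site (GRCm38.p6) held a match to the kappaB motif, the binding site of NF-kappaB. They are printed as a description of sequence, and a link to the NF-kappaB regulators described further on was not tested. Il6 is shown from chr5:30012964-30013113 and Ebi3 from chr17:55952473-55952622, both on the + strand, 5′ to 3′, with matches in capitals.
Il6: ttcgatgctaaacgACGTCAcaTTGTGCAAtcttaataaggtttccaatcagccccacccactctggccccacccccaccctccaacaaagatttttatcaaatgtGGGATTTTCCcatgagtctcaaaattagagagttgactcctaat
Ebi3: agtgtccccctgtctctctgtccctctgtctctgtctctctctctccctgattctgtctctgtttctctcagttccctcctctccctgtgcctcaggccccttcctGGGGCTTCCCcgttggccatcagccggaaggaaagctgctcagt

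In both genes the kappaB match lay 44 to 35 bases before the start. In Il6 the capitals upstream of it mark a CRE half-site (TGACGT, read on the opposite strand), 136 to 131 bases before the start, and a C/EBP match (TTGCNNAA, opposite strand), 128 to 121 bases before it. Among 32851 promoter windows searched over 250 bases on both strands, 3.90% held the kappaB match, 6.47% the CRE half-site and 9.56% the C/EBP match. An AP-1 match (TGANTCA, held by 6.75%) lay 249 to 243 bases before the start of Il6 and 228 to 222 bases before that of Lif, outside the bases printed. Of the 6 cytokine genes in the RefSeq table, Tnf, Il12a, Il12b and Lif had no kappaB match in this window. Il10, Il27 and Osm, which rose, and Il23a were not in that table and could not be searched. These matches describe letters and not binding.

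Counts on genes totaled 53527928 to 57768202 in Tim-4+ and 55618306 to 69594245 in Tim-4- libraries. Levels are given as CPM, counts scaled to library size, after correction with TMM factors for differences in composition. A total of 3 counts, taken as the lowest level that could be seen, corresponded to 0.0382 to 0.0630 CPM, and this floor covers counting error only. Timd4, the target of the capture, was at 1160, 1743, 524 and 1166 CPM in Tim-4+ TAMs and at 84.9, 11.1, 22.3 and 1.96 CPM in Tim-4- TAMs, so the Tim-4- library of pair 793 held the most Timd4 of its subset. Macrophage marker genes summed to 43257 to 55691 CPM in Tim-4+ and 20867 to 33357 CPM in Tim-4- libraries, most of it Lyz2 (means of 39771 and 21166 CPM). Of the 8 markers, 5 were called higher: Cd68 (log2 fold change 1.34), Adgre1 (1.28), Itgam (1.24), Lyz2 (0.93) and Mertk (0.57). Mrc1 was called lower (log2 fold change -1.09, adjusted p = 0.0115, edgeR), and Csf1r (0.25) and Fcgr1 (-0.17) were not called. The median log2 fold change of the 8 was 0.75. Calls were made at an adjusted p under 0.05 by edgeR's quasi-likelihood test, blocked by pair, with Benjamini-Hochberg adjustment across the 16861 genes tested, and every adjusted p given here is from that fit unless another is named. The p-values measure the spread between these 4 pairs, and in bulk RNA fewer expressing cells and less RNA per cell cannot be told apart.

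**Figure D1:**
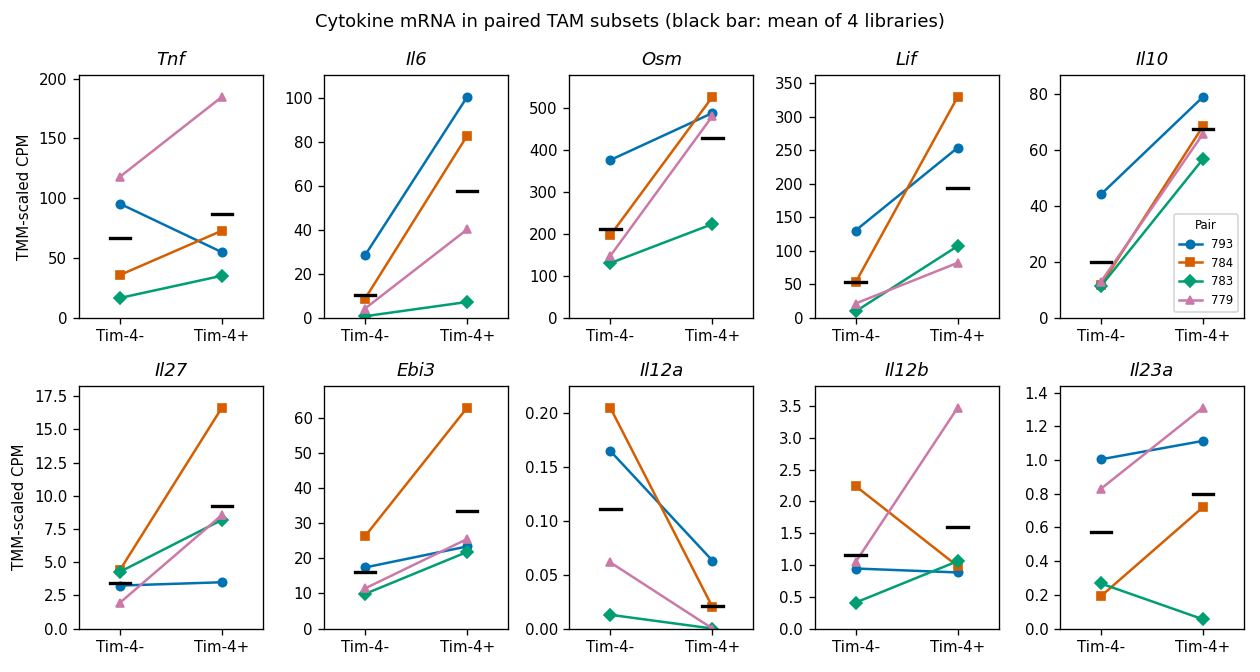
TMM-scaled CPM (linear axes from 0, 1 panel per cytokine) in Tim-4- and Tim-4+ TAMs, with a line for each of the 4 pairs and a black bar at the mean of each subset. Il6, Osm, Lif, Il10, Il27 and Ebi3 rise in all 4 pairs, Tnf falls in pair 793, and Il12a stays under 0.21 CPM.

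Of the 9 tested cytokines, 6 were called higher in Tim-4+ TAMs and 0 lower. Over all genes tested, 8.97% were called higher and 8.43% lower. The cytokines were chosen with earlier results of these data known, so setting them beside these shares is a description and not a test. The median log2 fold change was 1.07 over the 9 cytokines and -0.00 over all tested genes. Of the 9 tested cytokines, 6 were higher in 4 of 4 pairs, as were 22.4% of all tested genes. They were the 6 that the paired test called, so this agreement is not separate support. Only for Il10 did every Tim-4+ library exceed every Tim-4- library, a pattern found for 6.84% of tested genes, while 5.92% showed the reverse. These calls rest on few pairs: 1 cytokine was called without pair 784, 2 without pair 779, 6 without pair 783 and 7 without pair 793. Calls over all genes changed as well: 91, 469, 1608 and 800 genes were called higher in these fits, in the same order. With all pairs it was 1512. DESeq2 with the block called 6 higher and 0 lower. None was called when the pairing was ignored (edgeR, no replicate block), where 147 genes in all were called higher and 3560 genes had an unadjusted p under 0.05, these 6 cytokines among them.

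Il6, which drives acute-phase and STAT3 responses, showed the greatest fitted difference among the members. Its level was 100.3, 82.7, 7.16 and 40.1 CPM in Tim-4+ TAMs and 28.4, 8.62, 0.688 and 4.17 CPM in Tim-4- TAMs. The subsets overlapped because the pairs differed widely: the Tim-4+ library of pair 783 was lower than the Tim-4- libraries of pairs 793 and 784. Within pairs, however, the ratios were close to each other in 3 pairs, with log2 values of 3.26, 3.38 and 3.26 in pairs 784, 783 and 779 and 1.82 in pair 793. The fitted log2 fold change was 2.91 ± 0.29 (SE, n = 4 pairs; adjusted p = 0.00613, edgeR). Il6 was called under each pair left out, with an adjusted p of up to 0.0480, and missed the threshold without the pair block (log2 fold change 2.46, adjusted p = 0.211).

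Lif, which maintains stem cells and acts through Lifr and gp130, rose by a log2 fold change of 2.26 ± 0.40 (SE; adjusted p = 0.0170, edgeR). The Tim-4+ libraries held 253.5, 329.3, 106.9 and 81.9 CPM and the Tim-4- libraries 130.1, 52.7, 9.48 and 21.2 CPM. The Tim-4- libraries of pairs 784, 783 and 779 were below every Tim-4+ library, and that of pair 793 was above the Tim-4+ libraries of pairs 783 and 779. The ratio was largest in pair 783 (log2 3.50) and smallest in pair 793 (log2 0.96). Without pair 784 or pair 779 the log2 fold change was 2.11 or 2.37 and missed the threshold, with an adjusted p of up to 0.0903.

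Osm, a macrophage and neutrophil product that acts on stromal cells through Osmr and gp130, had the highest mean level per exon length of the members in both subsets, although in the Tim-4- library of pair 779 Tnf was above it (71.9 against 64.8 CPM per kb). It stood at 487.2, 525.6, 222.9 and 480.0 CPM in Tim-4+ TAMs and at 375.3, 196.3, 130.0 and 147.1 CPM in Tim-4- TAMs. The subsets overlapped through the low Tim-4+ library of pair 783 and the high Tim-4- library of pair 793. The log2 fold change was 1.07 ± 0.23 (SE; adjusted p = 0.0221, edgeR). It was 0.95 without pair 784 and 0.86 without pair 779, past the threshold in neither case (adjusted p up to 0.116). Osm and Lif are neighbors on chromosome 11 (GRCm38, Osm at chr11:4236420-4241026 and Lif at chr11:4257557-4272514, both on the + strand). Their ratio was not constant: per exon length, Lif stood at 0.0891 to 0.327 of Osm in Tim-4+ TAMs and at 0.0381 to 0.181 in Tim-4- TAMs, higher in the Tim-4+ library of all 4 pairs.

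Il10 was at 79.1, 68.6, 56.8 and 65.8 CPM in Tim-4+ TAMs, the narrowest relative spread of any member, and at 44.1, 11.6, 11.3 and 12.8 CPM in Tim-4- TAMs. The subsets did not overlap. Within Tim-4- TAMs the library of pair 793 stood alone, and it was the same library that held the most Timd4. The part of Tim-4+ cells in this value was not tested. The log2 fold change was 2.03 ± 0.30 (SE; adjusted p = 0.0112, edgeR), and without pair 793 it was 2.42. Without pair 784 or pair 779 it was 1.85 or 1.92 and missed the threshold, with an adjusted p of up to 0.0650. The study itself lists Il10 among genes it drew from these samples, so the count of Il10 among the rises is not independent of that choice.

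Tnf did not pass the test. Its level was 54.8, 72.8, 35.1 and 184.7 CPM in Tim-4+ TAMs and 95.4, 35.7, 16.5 and 117.8 CPM in Tim-4- TAMs, and the libraries of pair 779 were the highest of both subsets. Tnf was higher in Tim-4+ TAMs in 3 of 4 pairs and lower in pair 793 (log2 -0.80). The fitted log2 fold change was 0.51 ± 0.32 (SE; adjusted p = 0.323, edgeR), and without pair 793 it was 0.93 (adjusted p = 0.0242), so that pair decided the call. The ratio of Tnf to Il10 within a library, each per exon length, was 0.554, 0.849, 0.494 and 2.24 in the Tim-4+ libraries, compared with 1.73, 2.45, 1.17 and 7.35 in the Tim-4- libraries. It was higher in the Tim-4- library of every pair, by 2.37-fold to 3.28-fold. This ratio does not depend on how libraries are scaled to each other. It was picked after its values were seen and was not tested.

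**Figure D2:**
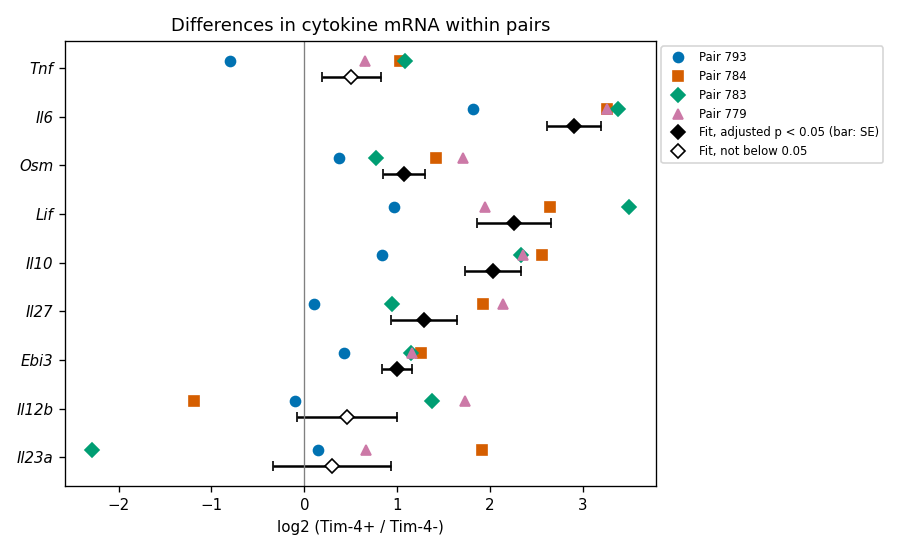
Log2 ratio of Tim-4+ to Tim-4- TAMs within each pair (coloured symbols) for the 9 tested cytokines, with the fitted log2 fold change and its SE (diamonds, filled where the adjusted p is under 0.05). Pair 793 gives the smallest ratio for 7 of the 9 cytokines, and Il12b and Il23a have ratios on both sides of 0.

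The size of the difference depended on the pair. Pair 793 gave the smallest Tim-4+ to Tim-4- ratio for all 6 called cytokines. Over all 1512 genes called higher, 39.8% had their smallest ratio in pair 793 and 46.6% in pair 783. Pair 783 in turn had the lowest levels of most tested cytokines: its Tim-4+ library was the lowest of the 4 for 6 of 9 and its Tim-4- library for 7 of 9. The share of all tested genes that were lowest in pair 783 was not computed, so this may not be particular to cytokines.

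The IL-27 chains rose together. Il27 was at 3.49, 16.6, 8.18 and 8.55 CPM in Tim-4+ TAMs and at 3.24, 4.39, 4.27 and 1.93 CPM in Tim-4- TAMs. The libraries of pair 793 were nearly equal (log2 ratio 0.11), and the other pairs were apart by log2 ratios of 0.94 to 2.14. The log2 fold change of Il27 was 1.29 ± 0.35 (SE; adjusted p = 0.0472, edgeR), just inside the threshold, and it missed the threshold with a minimum of 50 counts (adjusted p = 0.0503) and without pair 784 or pair 779 (log2 fold changes of 1.06 and 1.0, adjusted p up to 0.199). Ebi3 was at 23.4, 62.9, 21.8 and 25.5 CPM in Tim-4+ TAMs and at 17.4, 26.3, 9.86 and 11.4 CPM in Tim-4- TAMs, with the libraries of pair 784 highest in both subsets. Its log2 fold change was 1.0 ± 0.16 (SE; adjusted p = 0.00990, edgeR), or 0.91 without pair 784 (adjusted p = 0.0722). Per exon length Ebi3 exceeded Il27 in each of the 8 libraries, by 2.04-fold to 5.93-fold.

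Both IL-27 genes overlap a gene on the opposite strand, and whether reads were counted by strand is not given in the sources used here. Il27 (chr7:126589010-126594941) overlaps Apobr, which was at 158.6 to 200.5 CPM in Tim-4+ and 59.4 to 112.2 CPM in Tim-4- libraries and so also higher in Tim-4+ TAMs. Ebi3 (chr17:55952640-55957022) overlaps Gm16712, which was at 0.756 to 2.27 CPM, far below Ebi3. Reads labeled ambiguous between genes were left out of the counts, so the overlap could remove Il27 reads as well as add Apobr reads. The Il27 values are therefore uncertain in either direction, and neither part was tested.

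The chains of IL-12 and IL-23 were scarce. Il12b, the shared p40 chain, gave 42, 49, 58 and 167 counts in Tim-4+ and 63, 164, 32 and 68 counts in Tim-4- libraries, or 1.60 ± 1.25 and 1.16 ± 0.774 CPM (SD over 4 libraries). It was higher in Tim-4+ TAMs in 2 of 4 pairs, with a log2 fold change of 0.46 ± 0.54 (SE; adjusted p = 0.593, edgeR). Il23a, the p19 chain, gave 53, 36, 3 and 63 counts in Tim-4+ and 67, 14, 21 and 54 counts in Tim-4- libraries, with a log2 fold change of 0.30 ± 0.63 (SE; adjusted p = 0.781, edgeR). For neither gene could a direction be given: Il12b had a log2 fold change of -0.0025 without pair 779, and Il23a one of -0.23 without pair 784.

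Il12a, the p35 chain of IL-12, was the scarcest member. It gave 3, 1, 0 and 0 counts in Tim-4+ and 11, 15, 1 and 4 counts in Tim-4- libraries, 4 and 31 in total. All 4 Tim-4+ libraries were thus at or below the 3-count floor. Il12a reached 10 counts in 2 of 8 libraries and was left out of the test. At this depth no fold between the subsets can be given.

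**Figure D3:**
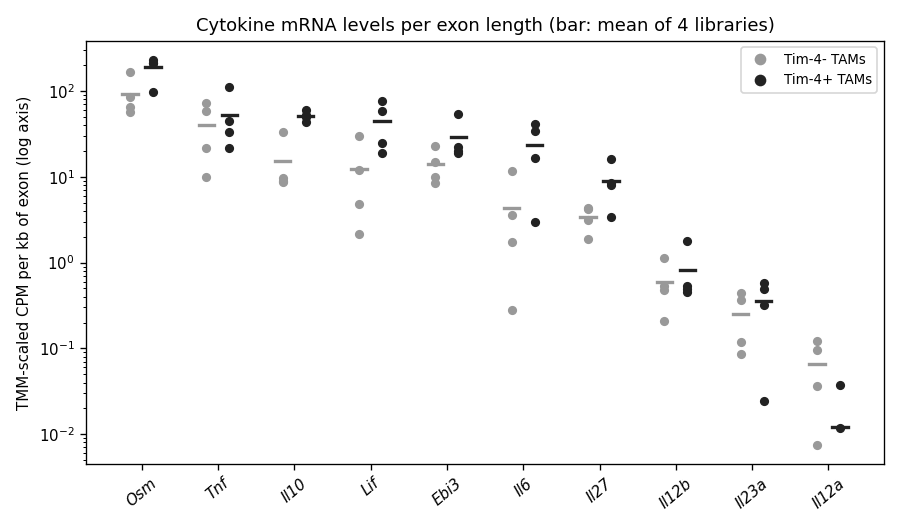
TMM-scaled CPM per kb of annotated exon (log axis) for each cytokine in each library, Tim-4- in grey and Tim-4+ in black, with bars at the mean of 4 libraries. The 2 Tim-4+ libraries with 0 Il12a counts are not drawn. The means of Il12b, Il23a and Il12a lie below those of the other 7 cytokines, although Il6 in the Tim-4- library of pair 783 (0.283) lies among the libraries of Il12b and Il23a.

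Levels between genes can be compared only per length, here as CPM per kb of the union of a gene's annotated exons. In Tim-4+ TAMs the mean level per length fell in the order Osm (188.8), Tnf (53.0), Il10 (51.6), Lif (44.3), Ebi3 (28.9), Il6 (23.7), Il27 (9.02), Il12b (0.813), Il23a (0.356) and Il12a (0.0122). In Tim-4- TAMs the order was Osm (93.4), Tnf (40.5), Il10 (15.2), Ebi3 (14.1), Lif (12.3), Il6 (4.31), Il27 (3.38), Il12b (0.589), Il23a (0.255) and Il12a (0.0652). In both orders the ranges of neighbors overlapped between libraries except for Il27 and Il12b, whose ranges were apart in both subsets. Osm took 45.0% to 49.6% of the summed level per length of the 10 genes in Tim-4+ libraries and 39.1% to 62.6% in Tim-4- libraries. Among 16836 genes with a length, Osm stood at percentile 98.6 in Tim-4+ and 97.6 in Tim-4- TAMs. Il6 stood at percentile 88.0 and 57.0, and Il12a at 0.196 and 3.39.

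Some cytokines followed each other from library to library. After the mean of each subset was removed, the Pearson correlation of log2 CPM over the 8 libraries was 0.92 for Il6 with Osm, 0.88 for Il6 with Lif, 0.80 for Il10 with Osm and 0.79 for Osm with Lif. Il27 and Ebi3, the chains of IL-27, had a correlation of 0.62. Il27 had a correlation of -0.13 with Il6 and of -0.14 with Il10. These are descriptions over libraries that share a pair number, the preparation and a like depth.

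Tested genes among the most like each called cytokine over the 8 libraries, by Pearson correlation of log2 CPM with subset differences included, were the following. For Il6 they were Wbp11 (0.992), Trap1 (0.989) and Ramp3 (0.974). For Il10 they were AC163635.1 (0.991), Lyz1 (0.988) and Dmpk (0.987). For Osm they were Acin1 (0.988) and Ryr2 (0.984), and for Lif Dcaf5 (0.967), Dpysl3 (0.967) and Epha2 (0.958). For Il27 they were Zbtb7b (0.982), Sp110 (0.967) and Saa3 (0.964), and for Ebi3 Myo10 (0.985), Tm9sf4 (0.980) and Gripap1 (0.978). They were drawn from 10285 genes compared over 8 libraries.

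Of 12 receptor genes for these cytokines, 10 were tested, 2 were called higher and 1 lower in Tim-4+ TAMs, with a median log2 fold change of 0.12. Of all tested genes, 17.4% were called in either direction. No receptor was called without pair 784, and 1 was called higher and 0 lower without pair 779. Il27ra, the IL-27-specific chain, was at 33.8, 31.9, 9.65 and 29.4 CPM in Tim-4+ and at 15.3, 11.5, 6.31 and 8.26 CPM in Tim-4- libraries. It rose by a log2 fold change of 1.27 ± 0.20 (SE; adjusted p = 0.0102, edgeR) and, like Il27 and Ebi3, was higher in all 4 pairs. Il10rb, the chain that Il10 shares with related cytokines, rose by a log2 fold change of 0.60 ± 0.12 (SE; adjusted p = 0.0163, edgeR), from 81.8 ± 24.1 to 121 ± 18.1 CPM (SD, n = 4).

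Osmr, the oncostatin M receptor chain, was the receptor that fell. It was at 0.777, 5.66, 2.16 and 1.68 CPM in Tim-4+ and at 1.93, 27.8, 3.90 and 7.90 CPM in Tim-4- libraries, with the Tim-4+ library the lower of each pair. The log2 fold change was -1.69 ± 0.29 (SE; adjusted p = 0.0116, edgeR), opposite in sign to that of its ligand Osm. Osmr is known mainly from stromal and epithelial cells. Tumor and mesothelial marker genes moved the same way as Osmr: their summed level was 109 to 404 CPM in Tim-4+ and 427 to 1960 CPM in Tim-4- libraries, and 9 of 9 were called lower. Fibroblast and endothelial markers summed to 17.6 to 80.7 CPM and 45.1 to 174 CPM. The part of such cells in the Osmr value was not tested.

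The other receptor chains were not called. The shared chain gp130 (Il6st) was at 130 ± 25.6 CPM in Tim-4+ TAMs against 140 ± 35.3 CPM (SD, n = 4) in the other subset, with a log2 fold change of -0.10. Log2 fold changes were 0.14 for Il6ra, 0.10 for Il10ra, -0.18 for Lifr, 0.27 for Tnfrsf1a and -0.14 for Tnfrsf1b. Il12rb2 was at 1.15 CPM in Tim-4+ and 0.478 CPM in Tim-4- TAMs, with a log2 fold change of 1.23 (adjusted p = 0.0810, edgeR). Il12rb1 gave 1 count over all 8 libraries, and Il23r gave 1 in Tim-4+ and 4 in Tim-4- libraries, so neither was tested.

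**Figure D4:**
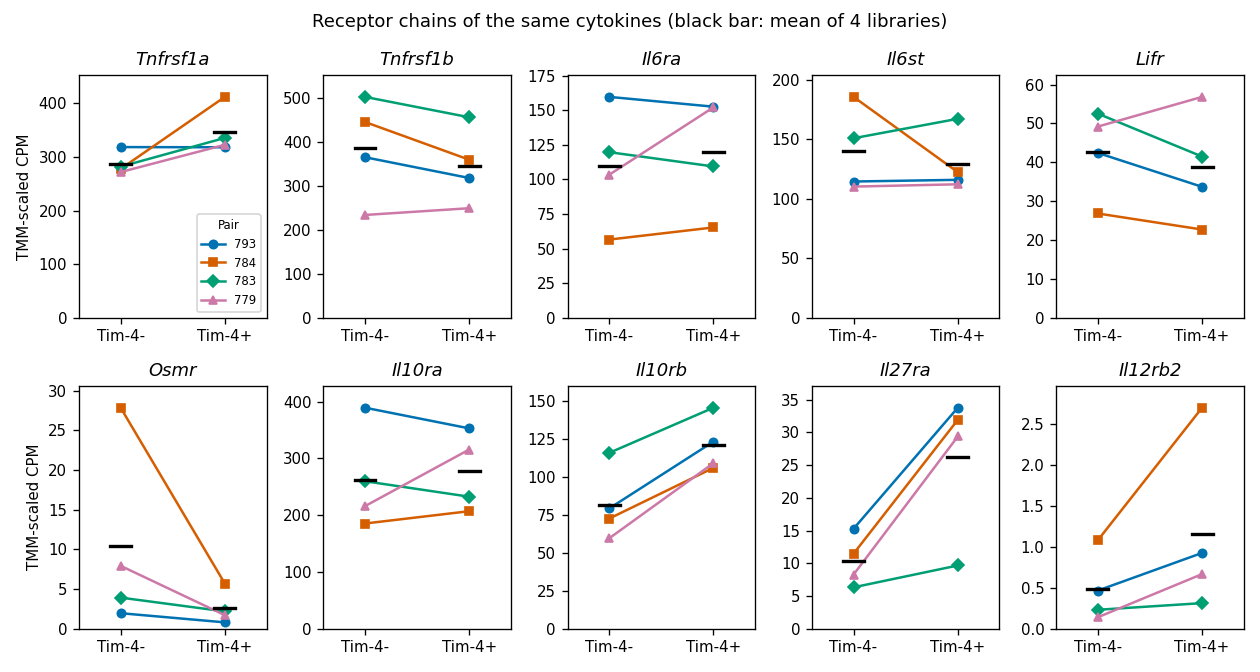
TMM-scaled CPM (linear axes from 0) of the 10 tested receptor chains in Tim-4- and Tim-4+ TAMs, with a line for each pair and a black bar at the mean of each subset. Il10rb and Il27ra rise and Osmr falls in all 4 pairs, whereas Il6st, Il6ra and Il10ra have lines in both directions.

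Of 14 JAK-STAT and TNF signaling genes, 0 were called higher and 2 lower by edgeR, with a median log2 fold change of -0.01, beside 17.4% of all tested genes called in either direction. At an unadjusted p under 0.05 there were 3 in each direction, and DESeq2 called 2 higher and 3 lower. Traf2, an adaptor of TNF receptors, was lower (log2 fold change -0.63, adjusted p = 0.0140, edgeR). Socs3, a feedback inhibitor of gp130 signaling, was at 799, 649, 819 and 2181 CPM in Tim-4+ and at 913, 323, 458 and 786 CPM in Tim-4- libraries, higher in 3 of 4 pairs (log2 fold change 0.79, adjusted p = 0.0797). Stat3 had a log2 fold change of 0.03. Without pair 793 or pair 784 the count of signaling genes called lower was 0, and without pair 783 or pair 779 it was 1.

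Among 13 regulators of NF-kappaB and of Il10, 6 were called higher and 1 lower, with a median log2 fold change of 0.57. The shares over all tested genes were 8.97% higher and 8.43% lower. All 7 calls were lost without pair 784 and without pair 779. In those fits the genes called higher fell from 1512 to 91 and 469 over all genes. Tnfaip3 (A20), an NF-kappaB target that limits TNF signaling, rose by 1.11 on the log2 scale (adjusted p = 0.0252, edgeR). Its level was 1100, 734, 441 and 2311 CPM in Tim-4+ and 974, 320.0, 173 and 707 CPM in Tim-4- libraries, with the smallest difference in pair 793. Nfkbiz, a nuclear cofactor needed for Il6 induction, rose by 1.02 (adjusted p = 0.0211), Nfil3, a transcription factor tied to Il10 and Il12b control, by 0.93 (adjusted p = 0.0121) and Cebpb, an activator of Il6, by 0.89 (adjusted p = 0.0205). Bcl3 and Rel, members of the NF-kappaB system, rose by 0.64 (adjusted p = 0.0163) and 0.62 (adjusted p = 0.0423). The other NF-kappaB subunit genes were not called, with log2 fold changes of 0.12 for Nfkb1, 0.10 for Rela, -0.07 for Nfkb2 and -0.11 for Relb, which was lower in all 4 pairs. Maf, an activator of Il10 in macrophages, moved opposite to Il10: it was lower in the Tim-4+ library of all 4 pairs (log2 fold change -0.70, adjusted p = 0.0460). Nfkbia (0.57, adjusted p = 0.0633) and Atf3 (0.14, adjusted p = 0.624) were not called.

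Of 9 genes of mRNA decay and cytokine release, 2 were called higher and 0 lower, with a median log2 fold change of 0.31. Beside this, 17.4% of all tested genes were called in either direction. Zfp36l1, which binds AU-rich elements, rose by 0.82 on the log2 scale (adjusted p = 0.0228, edgeR), and Dusp1, a phosphatase that limits p38 signaling and thereby cytokine transcript stability, by 0.94 (adjusted p = 0.0474). Zfp36 itself was higher in 3 of 4 pairs (0.69, adjusted p = 0.121), and Mapkapk2 had a log2 fold change of -0.09. Without pair 784 or pair 779, 0 genes of this list were called.

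Of 11 other cytokines of the gp130, IL-10 and TNF families, 2 were tested. Ctf1 (cardiotrophin-1), another gp130 ligand, was lower in Tim-4+ TAMs, with 10, 68, 75 and 49 counts against 106, 257, 164 and 313 counts (log2 fold change -1.72, adjusted p = 0.0285, edgeR). It was called without pair 783 but not without any of the other three pairs. Ltb was not called (-0.94, adjusted p = 0.343). Il11 gave 39 counts in Tim-4+ and 19 in Tim-4- libraries, Cntf gave 29 and 41, and Il20, Il22 and Il24 gave 0 counts in all 8 libraries.

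**Figure D5:**
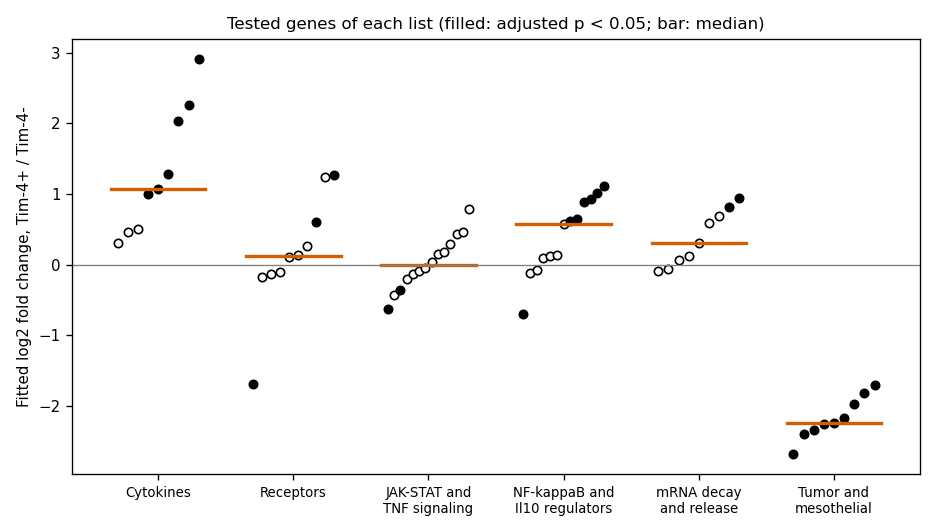
Fitted log2 fold change (Tim-4+ over Tim-4-) of the tested genes of each list, sorted within the list, with filled circles at an adjusted p under 0.05 and a bar at the median. The cytokines lie at 0.30 or above, regulators of NF-kappaB and Il10 mostly above 0, and all 9 tumor and mesothelial markers below it.

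Markers of other cell types were read beside the cytokines. Summed levels were lower in Tim-4+ libraries, in all 4 pairs, for monocyte (55.8 to 121 against 182 to 221 CPM), B cell (25.0 to 49.4 against 54.1 to 89.8 CPM) and T and NK cell markers (2.27 to 4.79 against 6.72 to 14.4 CPM), opposite to the cytokines that rose. Dendritic cell markers, of interest for Il12b, Il23a, Il27 and Ebi3, summed to 13.8 to 32.9 CPM in Tim-4+ and 11.96 to 18.9 CPM in Tim-4- libraries and were higher in 2 of 4 pairs. Of 7 tested, 5 were not called, and the median log2 fold change was 0.59. Cd209a was called higher (log2 fold change 2.02, adjusted p = 0.0104, edgeR) and Zbtb46 lower (-0.89, adjusted p = 0.0261). Granulocyte and mast cell markers summed to 268 to 377 and 138 to 227 CPM and were higher in all 4 pairs, but most of this sum was Csf3r (means of 316 and 145 CPM). The median log2 fold change of the 7 tested markers was -2.03: Csf3r was called higher, Kit and Mcpt4 were called lower, and Cpa3 (-3.12) and Tpsb2 (-3.09) were not called. No marker was at 0 in all libraries. Their part in the cytokine values was not tested.

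Immediate-early and heat-shock genes, a list of 12 written after the cytokine values were seen, were read because handling of cells can induce both them and cytokines. They summed to 5971 to 13102 CPM in Tim-4+ and 4270 to 8618 CPM in Tim-4- libraries, higher in 3 of 4 pairs and lower in pair 793. Of 10 tested, Fosb (log2 fold change 1.37, adjusted p = 0.0316, edgeR) and Junb (0.84, adjusted p = 0.0224) were called higher, each in all 4 pairs. Fos (0.27) and Egr1 (-0.51) were not called. The part of handling in the cytokine differences was not tested.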

How the data were processed

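RNA of 4 Tim-4+ and 4 Tim-4- TAM libraries was depleted of ribosomal RNA, made into stranded libraries and sequenced paired end in 2 lanes per library. The authors deposited raw counts of reads per gene and lane, not normalized. The submitters' processing notes name FastQC 0.11.3, TopHat2 2.0.13, Cufflinks and Cuffdiff 2.2.1 with GRCm38/mm10, while the paper's methods name hg19; the program that made the counts and its strand setting are not given in the sources used here. Multiply aligning reads are not in the gene counts.

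The 2 lanes were summed. Identifiers were matched to GENCODE M21 (98.6% found). One lane, of the Tim-4- library of pair 793, is listed by symbol and was joined by order after its Timd4 row, found at the top, was put back; 96.8% of 53704 compared symbols then matched, the 10 cytokines among them. Lanes of the same library differed by more than counting error (chi-square over its degrees of freedom, 2.29 to 2.42).

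Genes that reached 10 counts in 4 or more of 8 libraries were tested with edgeR 4.0.16 in R 4.3.3 (quasi-likelihood test, robust, TMM factors, pair as a block, Benjamini-Hochberg over 16861 genes). The SE is the log2 fold change divided by the square root of F. Pairs are those numbered in the labels: deviations from the subset means correlated at 0.277 to 0.498 within a number and at 0.0658 at most across numbers. A supplementary table of the study holds the same pairs with their numbers in the reverse order, so which number belongs to which pair is uncertain, and the labels' numbers are used throughout. Whether the cells of a pair came from 1 mouse or a pool is not given. Alternatives were DESeq2 1.42.0 and its size factors, total counts, no block, other count filters, lane 2 only, each pair left out and, added after seeing the data, the symbol-listed lane left out. The edgeR step was tested on simulated data.

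The cytokines and the lists of related genes and markers were chosen with earlier results of these data known. Named are all 10 cytokines and 12 receptor genes, the genes called in each other list with its 2 most abundant uncalled ones, and for each called cytokine the 3 genes with the highest correlation among tested genes of at least 5 CPM. A few genes that this rule names are not reported here. Single marker and immediate-early genes, the uncalled NF-kappaB subunits, Il11, Cntf, Il20, Il22 and Il24 were named after their values were seen. Sequences are from GENCODE M21 transcripts and RefSeq (GRCm38.p6).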

Additional observations from a re-analysis of the deposited data

Results flagged for a closer look

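In 7 of 43 groups of 4 libraries, 1 library stood apart from the other three by Dixon's criterion, which chance alone meets in about 1 of 20 groups. Il10 in the Tim-4- library of pair 793 was at 44.1 CPM against 11.3 to 12.8 CPM in the others. Il12b in the Tim-4+ library of pair 779 was at 3.47 CPM against 0.882 to 1.06 CPM. Ebi3 in the Tim-4+ library of pair 784 was at 62.9 CPM against 21.8 to 25.5 CPM. Osm in the Tim-4+ library of pair 783 was at 222.9 CPM against 480.0 to 525.6 CPM. The remaining 3 are single or few counts in pair 784 against 0 counts elsewhere in the subset: Il12rb1 and Il23r at 0.0200 CPM in the Tim-4+ library, and Il23r at 0.0547 CPM in the Tim-4- library.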

How the results depend on the processing

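Il6, Il10, Il27, Ebi3, Osm and Lif were higher in Tim-4+ TAMs under all 12 alternatives, but not always past the threshold. Without the replicate block (pairing ignored) the log2 fold changes of Il6 (2.46), Il10 (1.76), Il27 (1.41), Ebi3 (1.04), Osm (1.02) and Lif (1.85) missed it. So did Il10 (2.02) and Lif (2.24) with no count filter, Il27 with a minimum of 50 counts (1.28) and Il27 (0.93) with total counts per library, where Il23a turned to -0.064 and the median of all genes moved to -0.36. With a pair left out, log2 fold changes were 0.30 to 0.93 for Tnf, 1.85 to 2.42 for Il10, -0.0025 to 1.02 for Il12b, -0.23 to 0.85 for Il23a, 1.0 to 1.67 for Il27, 0.91 to 1.19 for Ebi3, 0.86 to 1.31 for Osm and 1.85 to 2.70 for Lif.

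Calls with a pair left out numbered 1 to 7 for cytokines, 0 to 3 higher and 0 to 1 lower for receptors, 0 to 1 higher and 0 to 1 lower for signaling genes, 0 to 6 higher and 0 to 1 lower for regulators, 0 to 3 higher for mRNA decay genes, 0 to 1 lower for the other cytokines, and 91 to 1608 higher and 67 to 1975 lower over all genes. The count without replicate block was 0 in each list, both directions, and 147 higher and 85 lower over all genes. With total counts it was 1 higher and 3 lower for receptors, 5 lower for signaling genes, 3 lower for regulators, 0 higher and 2 lower for mRNA decay genes, and 789 higher and 4903 lower over all genes. DESeq2 called 2 signaling genes and 4 mRNA decay genes higher, and 2323 of all genes lower. Lane 2 alone called 0 of the other cytokines lower. The cause of each change was not tested. Counts were too few to test Il12a, Il12rb1, Il23r and 9 of the 11 other cytokines.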
